A study of Homo sapiens with 5 samples.

Results

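The translation initiation factors are the proteins that bring a ribosome to an mRNA and place it on the start codon, and here they are the protein-coding genes whose symbol begins with EIF and a digit from 1 to 6, leaving out the EIF2AK kinases. The annotation held 52 such genes, and 49 of them had a row in the deposited table. The 14 rows from EIF3A to EIF3M, with the copy EIF3CL counted among them, were treated as a group of their own. EIF1AY, EIF4E1B and EIF4EBP3 had no row. The family was chosen by its symbols, but it was proposed with the difference between the same libraries already known, so the calls given here describe these libraries and are not independent support for any pattern.

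The cells were RH4, an established line of alveolar rhabdomyosarcoma, a childhood muscle tumour. They were transfected at 30 nM with si-SCR as control or with si-circVAMP3, directed at the back-splicing junction of the circular RNA circVAMP3. All cultures were collected at 48 h, with fresh medium given midway. Polyadenylated RNA was sequenced from 3 si-SCR and 2 si-circVAMP3 cultures, which the study's methods call biological replicates, and the comparison asks what the loss of circVAMP3 does to the transcriptome. Levels are given as FPKM, fragments per kilobase of gene, scaled by the authors to a size for each library that is close to but not the same as its total of counted fragments. The smallest whole numbers of fragments that fit the FPKM ratios summed, over the deposited genes, to 26064850, 24694435 and 24583875 in si-SCR. In si-circVAMP3 they summed to 18358442 and 28401864. Single genes may be too low by a whole factor, so these totals may be too low as well.

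Initiation begins when the factor EIF2, with GTP, delivers the initiator tRNA to the small ribosomal subunit. EIF3 is the largest of the factors, a complex of many subunits that sits on the small ribosomal subunit and links it to the EIF4 proteins, which hold the capped end of the mRNA and unwind it. EIF1, EIF1A and EIF5 then govern the search for the start codon, EIF5B joins the large subunit, and EIF2B recharges EIF2 with GTP.

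VAMP3, the host gene of circVAMP3, was measured at 36.4, 35.4 and 37.4 FPKM in the si-SCR libraries and at 29.4 and 30.2 FPKM in the si-circVAMP3 libraries. Both si-circVAMP3 values lay below every si-SCR value, with a log2 fold change of -0.29 (standard error 0.04, adjusted p = 0.00496). Without si-circVAMP3 replicate 1 the adjusted p was 0.0506. These libraries were made from polyadenylated RNA, so this row reads mainly the linear VAMP3 mRNA and does not measure the circular RNA itself.

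RH4 libraries should carry muscle markers and few markers of other tissues. Of 15 myogenic markers, 12 had a row, with a summed level of 1154, 1195 and 1053 FPKM in si-SCR and 869 and 871 FPKM in si-circVAMP3. MYF5, MYF6 and PAX7 had none. ACTC1, a cardiac and embryonic muscle actin, was the most abundant in si-SCR and DES, the muscle intermediate filament desmin, in si-circVAMP3. Of the 11 myogenic markers tested, 5 were called lower and 0 higher, beside 15.8% and 14.6% of all genes. Of 16 markers of epithelial, blood, endothelial and fibroblast cells, 4 had a row, with a summed level of 1.48, 1.18 and 1.24 FPKM in si-SCR and 1.70 and 1.43 FPKM in si-circVAMP3. The part of the lower muscle markers in the differences below was not tested. In a bulk culture such as this one, fewer cells of a kind and less RNA per cell cannot be told apart.

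Of the 49 genes, 48 passed the filter of a mean of at least 0.5 FPKM, and EIF5AL1, a copy of EIF5A, did not. At an adjusted p under 0.05, 8 of the 48 were called lower in si-circVAMP3 and 11 were called higher. Over all 12245 genes tested, 15.8% were called lower and 14.6% higher, 30.4% in either direction. The median log2 fold change was 0.05 over the 48 genes and 0.01 over all genes. Under the study's added cut-off on size, an absolute log2 fold change over 0.58, 2 of the 48 remained lower, EIF3B and EIF4G2, and 0 remained higher, where all genes gave 2.72% lower and 1.09% higher. The counts called at an adjusted p under 0.05 changed when 1 library was left out, which also leaves fewer libraries to fit. Without si-circVAMP3 replicate 1 they were 5 lower and 1 higher, without si-circVAMP3 replicate 2 they were 3 lower and 0 higher, without si-SCR replicate 1 they were 7 lower and 3 higher, and without si-SCR replicate 2 they were 5 lower and 3 higher. The calls over all genes also fell in these fits. They were 817 lower and 490 higher of 12254 without si-circVAMP3 replicate 1 and 779 lower and 484 higher of 12246 without si-circVAMP3 replicate 2. Without si-SCR replicate 1 they were 1643 lower and 1421 higher of 12242, and without si-SCR replicate 2 there were 2189 calls, 1214 of them lower, of 12235. Leaving out si-SCR replicate 3 went the other way. It gave 8 lower and 12 higher of the 48, and 2005 lower and 1989 higher of 12232 over all genes.

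**Figure D1:**
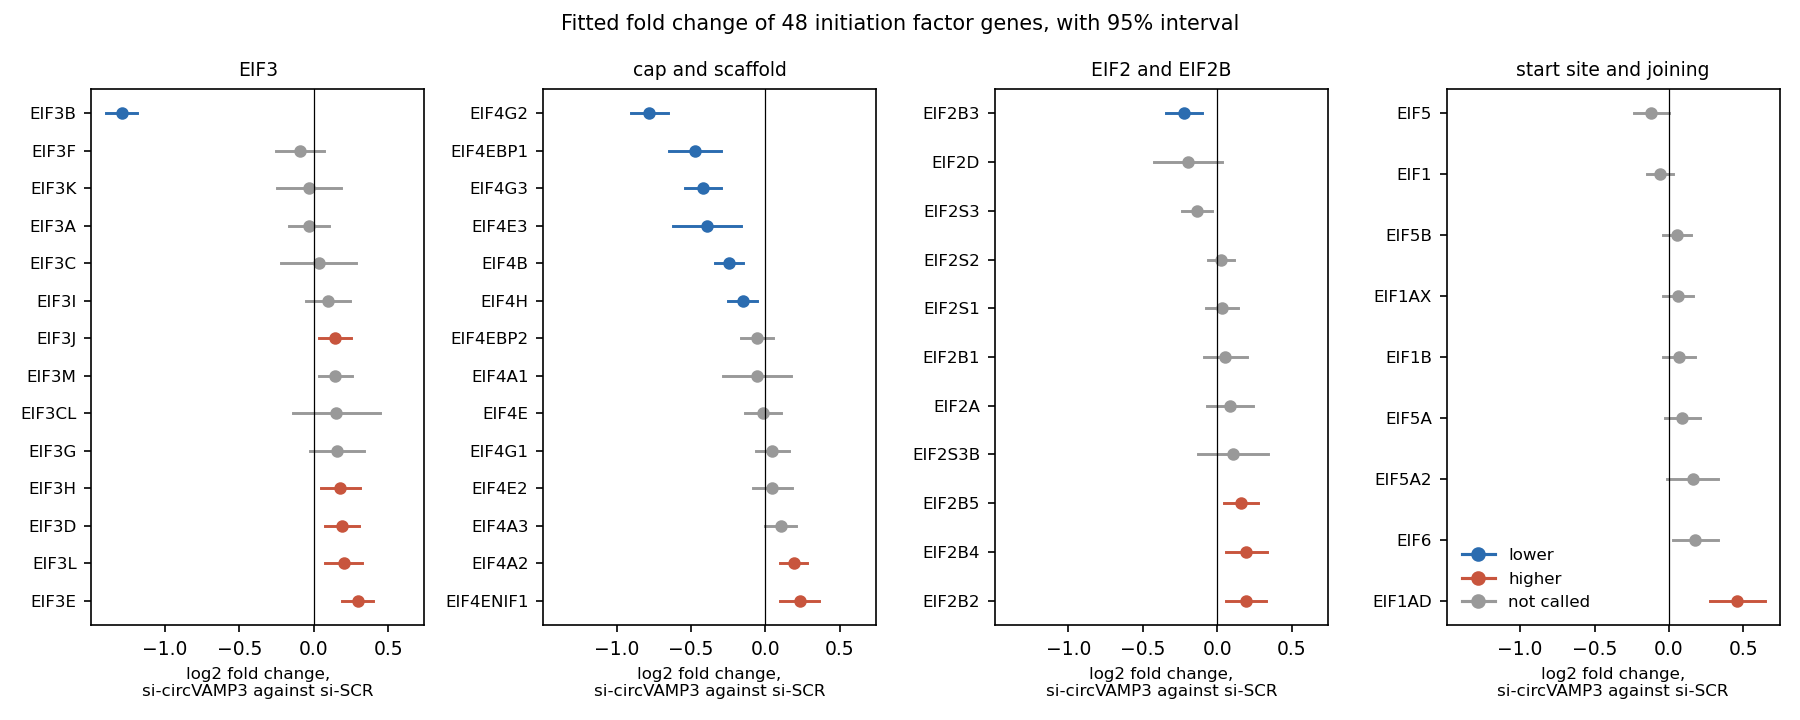
Fitted log2 fold change of si-circVAMP3 (n = 2) against si-SCR (n = 3) for the 48 tested genes in 4 groups by role, with points for the estimate, lines for the 95% interval and colour for the call. EIF3B, at -1.29, and EIF4G2, at -0.78, stand farthest from 0, and the genes called higher reach at most 0.46.

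EIF3 showed a difference in opposite directions between its subunits. EIF3B, a subunit outside the octamer core that carries EIF3G and EIF3I, was called lower. EIF3D, EIF3E, EIF3H, EIF3J and EIF3L were called higher by small amounts, and the other 8 rows were not called. That is 1 lower and 5 higher of 14, beside 15.8% and 14.6% of all genes. The median log2 fold change over the 14 rows was 0.15.

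EIF3B (ENSG00000106263, chr7:2354086-2380745, plus strand, GRCh38) was measured at 48.1, 47.2 and 45.8 FPKM in si-SCR and at 18.6 and 19.3 FPKM in si-circVAMP3. The si-circVAMP3 libraries held 40.3% of the si-SCR mean, and no value of one group came near the other. The log2 fold change was -1.29 (standard error 0.04, 95% interval -1.39 to -1.18, adjusted p = 4.39e-05), the lowest of the 48 genes and at rank 17 from the lowest of the 12245 genes. It was called in each of the 16 alternative fits, and leaving out each library in turn moved the fold change only between -1.32 and -1.26.

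Among the subunits on the same per-length scale, EIF3B went from the middle to near the bottom. In si-SCR its FPKM was 102%, 98.0% and 91.1% of the median of the other subunits, leaving EIF3CL out. In the si-circVAMP3 libraries it was 34.1% and 37.8% of that median. The median FPKM of the other subunits was 47.4, 48.1 and 50.3 in si-SCR and 54.5 and 51.2 in si-circVAMP3, so the lower share came with a lower EIF3B and no lower level of the others.

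**Figure D2:**
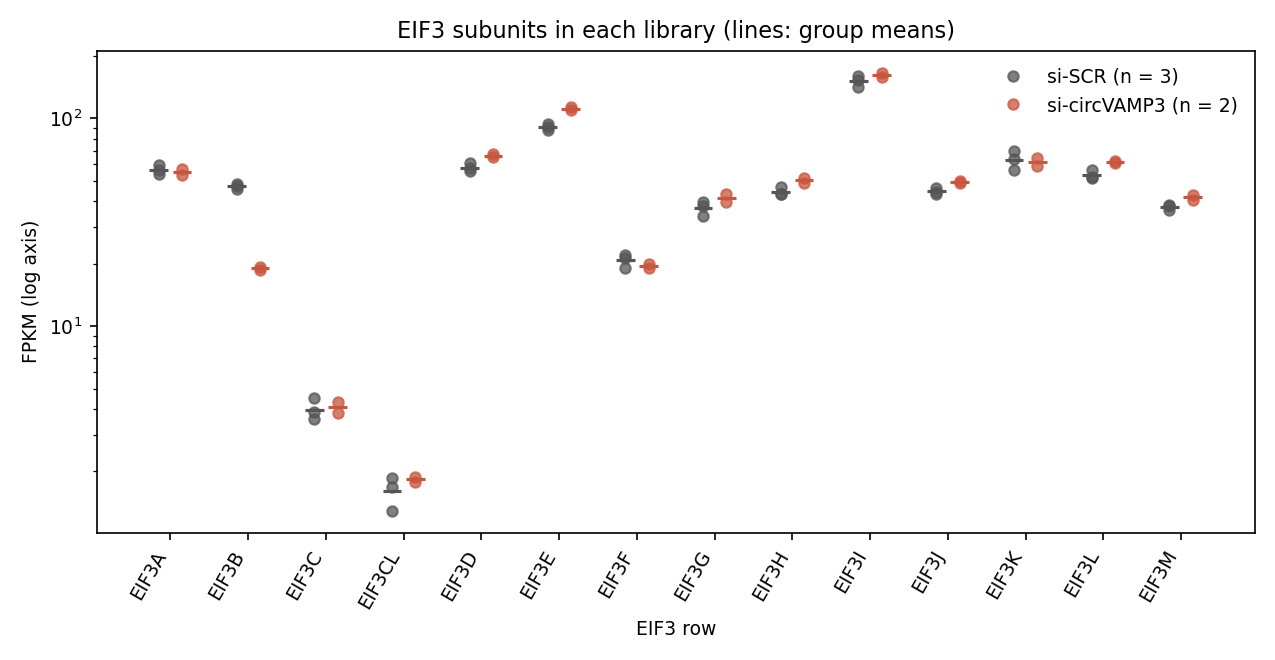
FPKM of each EIF3 row in each library on a log axis, with si-SCR in grey (n = 3), si-circVAMP3 in red (n = 2) and lines at the group means. EIF3B falls from a mean of 47.0 to 18.97 FPKM, while EIF3E rises from 90.8 to 112 FPKM and most other rows keep nearly the same place.

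The other subunits outside the core were not lower. EIF3D, which can itself bind the cap of some mRNAs, was measured at 55.5, 57.7 and 60.7 FPKM in si-SCR and at 67.3 and 65.1 FPKM in si-circVAMP3 (log2 fold change 0.19, adjusted p = 0.0284). EIF3J, a loosely bound subunit that contacts the decoding region of the ribosome, was measured at 43.3, 43.98 and 46.4 FPKM in si-SCR and at 49.7 and 48.8 FPKM in si-circVAMP3 (log2 fold change 0.14, adjusted p = 0.0499). In both genes the si-circVAMP3 values lay above every si-SCR value, which adds nothing to their calls. EIF3I, a beta-propeller subunit bound to EIF3B and the most abundant of the EIF3 rows per length, was measured at 141, 154 and 160.3 FPKM in si-SCR and at 157 and 166 FPKM in si-circVAMP3. EIF3G, an RNA-binding subunit also carried by EIF3B, was measured at 38.0, 39.5 and 33.9 FPKM in si-SCR and at 39.4 and 43.5 FPKM in si-circVAMP3. Both partners overlapped between the groups and were not called, with log2 fold changes of 0.09 for EIF3I and 0.16 for EIF3G.

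Within the core, EIF3E was the clearest of the genes called higher. It was measured at 91.4, 87.6 and 93.6 FPKM in si-SCR and at 109 and 114 FPKM in si-circVAMP3 (log2 fold change 0.29, standard error 0.04, adjusted p = 0.00489). EIF3L, a core subunit that pairs with EIF3K, was measured at 51.5, 52.3 and 56.6 FPKM in si-SCR and at 62.3 and 60.8 FPKM in si-circVAMP3 (log2 fold change 0.20, adjusted p = 0.0277). EIF3H, which with EIF3F forms the pair of subunits with an MPN domain, was measured at 43.1, 43.1 and 46.9 FPKM in si-SCR and at 51.7 and 48.9 FPKM in si-circVAMP3 (log2 fold change 0.18, adjusted p = 0.0453). None of these groups overlapped, but the genes are singled out by their calls, so this is not further support. EIF3M, another core subunit, missed the threshold at an adjusted p of 0.0548, with 38.0, 36.2 and 38.5 FPKM in si-SCR and 40.6 and 42.7 FPKM in si-circVAMP3.

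The remaining core rows overlapped between the groups and were not called. EIF3A, the largest subunit and a scaffold of the core, was measured at 59.6, 56.7 and 53.7 FPKM in si-SCR and at 57.4 and 53.5 FPKM in si-circVAMP3. EIF3F was measured at 19.1, 21.3 and 22.1 FPKM in si-SCR and at 19.8 and 19.2 FPKM in si-circVAMP3. EIF3K was measured at 56.4, 64.0 and 69.6 FPKM in si-SCR and at 58.9 and 64.7 FPKM in si-circVAMP3. Their log2 fold changes were -0.03, -0.09 and -0.03. EIF3C, the second scaffold of the core, and EIF3CL are near-identical copies, so reads that fit both could be lost to both and their levels are uncertain. EIF3C was measured at 4.51, 3.85 and 3.56 FPKM in si-SCR and at 4.33 and 3.80 FPKM in si-circVAMP3, and EIF3CL at 1.67, 1.29 and 1.85 FPKM in si-SCR and at 1.78 and 1.88 FPKM in si-circVAMP3.

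The small rises were not firm. EIF3D, EIF3H, EIF3J and EIF3L were no longer called when si-SCR replicate 1, si-SCR replicate 2 or either si-circVAMP3 library was left out, with adjusted p of up to 0.166, 0.243, 0.222 and 0.157. EIF3E was lost only without si-circVAMP3 replicate 2, at an adjusted p of 0.0524. Among the scalings, putting the values on a TPM scale left 3 EIF3 subunits called higher and quantile normalization also left 3, while median centring gave 6. A fit without the variance trend left only EIF3E called higher, and EIF3J was also lost with a pseudocount of 0.1 and without a filter. No EIF3 row called higher changed its sign in any alternative.

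The cap-binding and scaffold proteins held 6 of the 8 genes called lower, among 14 tested, with 2 called higher, beside 15.8% and 14.6% of all genes, and a median log2 fold change of -0.06. EIF4G2, a scaffold like EIF4G1 that lacks the site for the cap-binding protein EIF4E and serves cap-independent initiation, was measured at 226, 235 and 245 FPKM in si-SCR and at 142 and 132 FPKM in si-circVAMP3. That was 58.2% of the si-SCR mean with a wide gap between the groups, a log2 fold change of -0.78 (standard error 0.05, 95% interval -0.90 to -0.66, adjusted p = 0.000359). In si-SCR, EIF4G2 had the highest FPKM of the whole family. EIF4G3, another scaffold that binds EIF4E and EIF4A, was measured at 18.95, 18.3 and 19.7 FPKM in si-SCR and at 14.3 and 13.8 FPKM in si-circVAMP3 (log2 fold change -0.42, adjusted p = 0.00217). EIF4G1, the main scaffold, did not follow them, with 146, 144 and 135 FPKM in si-SCR and 147 and 146 FPKM in si-circVAMP3 (log2 fold change 0.04). EIF4G2 and EIF4G3 were called in every alternative fit.

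EIF4EBP1, an inhibitor that holds EIF4E away from the scaffold until mTORC1 phosphorylates it, was measured at 88.2, 104 and 98.3 FPKM in si-SCR and at 71.7 and 67.4 FPKM in si-circVAMP3 (log2 fold change -0.47, standard error 0.07, adjusted p = 0.00532). Its relative EIF4EBP2 was not called, with a log2 fold change of -0.06. EIF4B and EIF4H, cofactors that stimulate the helicase EIF4A, were lower by less. EIF4B was measured at 112, 112 and 113 FPKM in si-SCR and at 96.9 and 92.5 FPKM in si-circVAMP3 (log2 fold change -0.24, adjusted p = 0.00577). EIF4H was measured at 196, 197 and 187 FPKM in si-SCR and at 173 and 174 FPKM in si-circVAMP3 (log2 fold change -0.15, adjusted p = 0.0307). EIF4E3, a homologue of the cap-binding protein, was measured at only 1.18, 1.35 and 1.41 FPKM in si-SCR and at 0.954 and 0.803 FPKM in si-circVAMP3 (log2 fold change -0.39, adjusted p = 0.0236). Another gene model overlaps EIF4E3 on its strand, so reads could be lost and its level is uncertain. In all 4 genes named with values in this paragraph the si-circVAMP3 values lay below every si-SCR value. The 4 were named because they were called, so this separation is not further support. EIF4EBP1 and EIF4B lost the call without si-circVAMP3 replicate 2, at adjusted p of 0.0543 and 0.0592. EIF4E3 lost it without si-SCR replicate 2 or either si-circVAMP3 library, at up to 0.146, and with the replicate block, and EIF4H kept it only without si-SCR replicate 3 and otherwise reached up to 0.159. EIF4H also lost it under median centring and without the variance trend.

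EIF4A2, a helicase that unwinds the start of the mRNA, was called higher, at 71.6, 69.9 and 69.0 FPKM in si-SCR and 81.1 and 79.1 FPKM in si-circVAMP3 (log2 fold change 0.19, adjusted p = 0.0128). EIF4ENIF1, which carries EIF4E into the nucleus and into cytoplasmic granules, was measured at 8.18, 8.15 and 8.46 FPKM in si-SCR and at 10.2 and 9.41 FPKM in si-circVAMP3 (log2 fold change 0.23, adjusted p = 0.0230). Neither gene overlapped between the groups, which again adds nothing to their calls. EIF4A2 was lost without si-circVAMP3 replicate 1 and without si-circVAMP3 replicate 2, with adjusted p between 0.0684 and 0.0999. EIF4ENIF1 was lost without si-SCR replicate 1, at 0.0536, without si-SCR replicate 2 and without either si-circVAMP3 library, with the highest value, 0.159, without si-circVAMP3 replicate 1. EIF4E, the cap-binding protein, and EIF4E2, EIF4A3 and EIF4A1 were not called, with log2 fold changes of -0.02, 0.05, 0.10 and -0.06. EIF4A1 had a mean of only 1.51 FPKM in si-SCR. In the annotation used here for coordinates, most of its length is overlapped on the same strand by the readthrough gene SENP3-EIF4A1. The authors' counting leaves out reads that fit more than 1 gene, so reads could be lost and this level may not measure the gene. The authors counted on another annotation release, and whether lost reads account for the low level was not tested.

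Of 11 tested genes of EIF2 and EIF2B, 1 was called lower and 3 higher, beside 15.8% and 14.6% of all genes. All 4 were subunits of EIF2B. EIF2B3, a subunit of its catalytic part, was measured at 11.4, 11.97 and 12.3 FPKM in si-SCR and at 10.1 and 10.1 FPKM in si-circVAMP3 (log2 fold change -0.22, adjusted p = 0.0194). EIF2B5, the catalytic subunit, was measured at 16.0, 15.9 and 17.0 FPKM in si-SCR and at 18.3 and 18.2 FPKM in si-circVAMP3 (log2 fold change 0.16, adjusted p = 0.0479). So both genes of the catalytic part were called, in opposite directions. EIF2B2, a regulatory subunit, was measured at 9.17, 9.25 and 9.44 FPKM in si-SCR and at 11.2 and 10.2 FPKM in si-circVAMP3 (log2 fold change 0.19, adjusted p = 0.0391). EIF2B4, also regulatory, was measured at 7.73, 7.43 and 7.81 FPKM in si-SCR and at 9.19 and 8.48 FPKM in si-circVAMP3 (log2 fold change 0.19, adjusted p = 0.0450). None of the 4 overlapped between the groups, which is no support beyond the calls by which they were picked. EIF2B2, EIF2B4 and EIF2B5 were lost without si-SCR replicate 1, without si-SCR replicate 2 and without either si-circVAMP3 library, with adjusted p of up to 0.236, 0.258 and 0.195. EIF2B3 was lost without si-SCR replicate 2 and without either si-circVAMP3 library, with up to 0.109. The replicate block ended the calls of EIF2B2, EIF2B3 and EIF2B4, and a fit without the variance trend those of EIF2B2, EIF2B4 and EIF2B5. Quantile normalization ended those of EIF2B2 and EIF2B5, the TPM scale those of EIF2B4 and EIF2B5, and a fit without a filter that of EIF2B4.

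The EIF2 subunits themselves were not called. EIF2S2, its beta subunit, was measured at 143, 141 and 143 FPKM in si-SCR and at 142 and 148 FPKM in si-circVAMP3 (log2 fold change 0.02). EIF2S1, the alpha subunit whose phosphorylation lowers initiation, had a log2 fold change of 0.03, and EIF2S3, the GTP-binding gamma subunit, -0.14 with an adjusted p of 0.0539. EIF2S3 was called lower with a filter at 5 FPKM, on the TPM scale, under quantile normalization and in a fit to recovered reads. The copy EIF2S3B, which may share reads with EIF2S3, EIF2B1, EIF2A and EIF2D were not called, with log2 fold changes of 0.10, 0.05, 0.09 and -0.20.

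Of the 9 tested genes for start-site selection and subunit joining, 1 was called, and it was higher, beside 30.4% of all genes called in either direction. EIF1AD, a protein with an EIF1A-like domain, was measured at 9.51, 10.4 and 11.4 FPKM in si-SCR and at 14.5 and 14.5 FPKM in si-circVAMP3. That is a log2 fold change of 0.46 (standard error 0.08, adjusted p = 0.00687), the highest of the 48 genes, with no overlap between the groups. It was lost without si-circVAMP3 replicate 1 and without si-circVAMP3 replicate 2, with adjusted p between 0.0560 and 0.0568. EIF5A, a factor known mainly for peptide elongation, was the most abundant of the uncalled genes per length, at 175, 188 and 192 FPKM in si-SCR and 198 and 196 FPKM in si-circVAMP3 (log2 fold change 0.09, adjusted p = 0.206). EIF1, EIF1B and EIF1AX, which keep the scanning ribosome in its open form, had log2 fold changes of -0.06, 0.07 and 0.06. EIF5, which makes EIF2 hydrolyse its GTP, EIF5B, EIF5A2 and EIF6, which keeps the ribosomal subunits apart, had log2 fold changes of -0.12, 0.05, 0.16 and 0.18, none of them called.

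**Figure D3:**
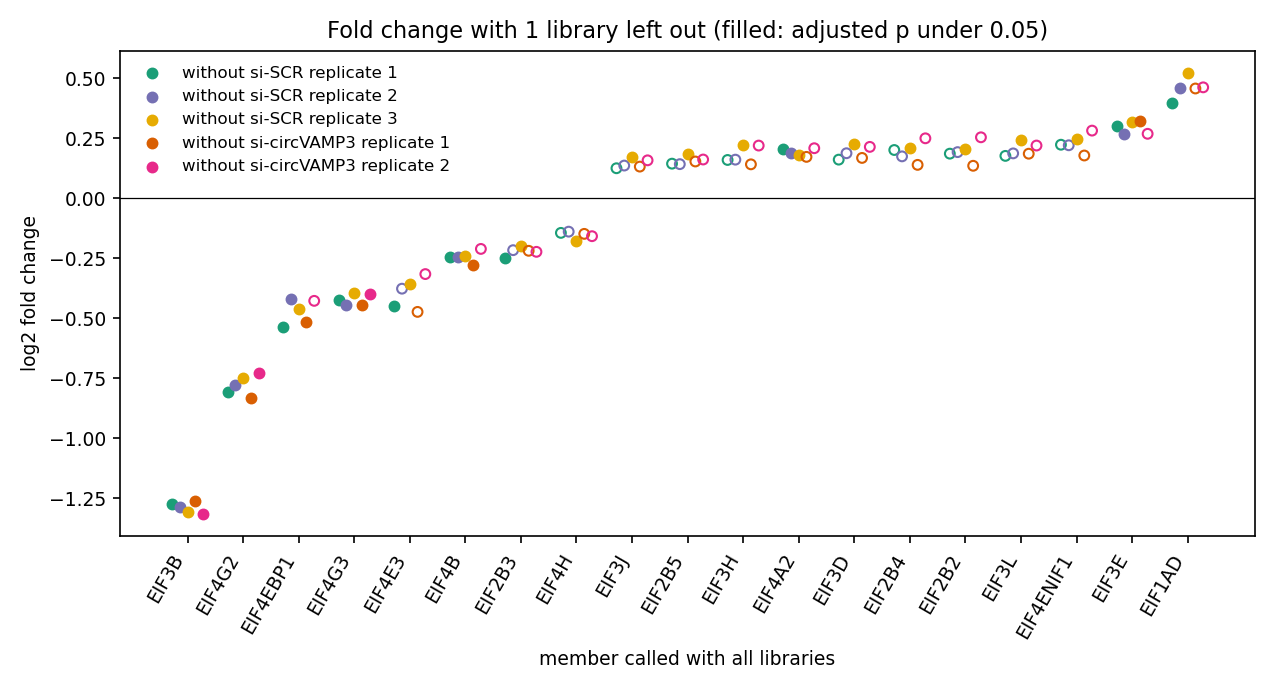
Log2 fold change of the 19 genes called with all 5 libraries, refitted with 1 library left out at a time, with filled points where the adjusted p was under 0.05. EIF3B, EIF4G2 and EIF4G3 are filled in all 5 fits, and the other 16 genes have at least 1 open point while every point keeps its side of 0.

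The siRNA sequence was set beside the transcripts of the family, because bases 2 to 8 of a guide strand, its seed, are the part that microRNA-like pairing uses. The study's oligonucleotide list gives the strand with the circVAMP3 sequence, and the guide strand was taken as the reverse complement of its first 19 bases. The capitals mark the guide seed and the bases that pair with it.

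si-circVAMP3 as listed: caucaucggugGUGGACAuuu
guide strand: aUGUCCACcaccgaugaug

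The 7 bases that pair with the seed, GTGGACA, were searched in the coding transcript that the annotation marks as canonical. Of 10947 tested genes with such a transcript, 3413 (31.2%) held at least 1 match. Among the 48 initiation factor genes, 17 held a match. All 8 genes called lower were among these 17, and of the 31 genes without a match 0 were called lower and 9 higher. Over all genes, 27.4% of those with a match were called lower and 8.94% higher, and 11.1% of those without a match were called lower and 18.8% higher. The other 9 with a match were EIF2B4 and EIF4ENIF1, called higher, and EIF1, EIF2S1, EIF3C, EIF3CL, EIF3F, EIF5 and EIF5B, not called. VAMP3, outside the family and also called lower, held 2 matches in its coding sequence. The siRNA was built on VAMP3 sequence and shares a run of 12 bases with the VAMP3 transcript. A match in VAMP3 was therefore fixed by the design of the siRNA and cannot be set beside those of the family. A match describes the letters of a transcript and is not shown to be a site that the guide uses.

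EIF3B held 4 matches, all in its coding sequence, the most of the family. Only 64 of the 10947 genes, 0.585%, held 4 or more. They lie in exons 2, 14, 15 and 18 of the 19 exons of its canonical transcript, with the matching bases at chr7:2360775-2360781, chr7:2375411-2375417, chr7:2376950-2376956 and chr7:2379396-2379402 on the plus strand of GRCh38. They are shown in that order because EIF3B is the member with the lowest fold change, with the match in capitals. The matches of exons 2 and 14 lie within stretches of 1 exon, while the stretches named for exons 15 and 18 cross a splice junction and take some of their bases from the neighbouring exon.

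EIF3B exon 2: cggtgattgtaGTGGACAatgtccctcag
EIF3B exon 14: ccttagcgtttGTGGACActtcggactgc
EIF3B exon 15: ggagccataagGTGGACAacgcgtactgg
EIF3B exon 18: tgcgaggagggGTGGACActgacgagctg

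The other genes called lower held 1 match each. In EIF4G2 it lies in coding exon sequence (chr11:10804409-10804415, minus strand, exon 6 of 22), in EIF4G3 likewise (chr1:20810858-20810864, minus strand, exon 36 of 37), and in EIF4H and EIF2B3 also in the coding sequence. In EIF4B (chr12:53041781-53041787, plus strand), EIF4E3 and EIF4EBP1 it lies in the 3' untranslated region. The sites of EIF4G2 and EIF4G3, called in every alternative, and of EIF4B, as an example outside the coding sequence, are shown with the match in capitals. The stretch of EIF4G2 crosses a splice junction, and the other 2 lie within 1 exon.

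EIF4G2 exon 6: tactgctgattGTGGACAaagccctagaa
EIF4G3 exon 36: ctaccttcagaGTGGACActgctgttatc
EIF4B exon 15: taatttacccaGTGGACAaaggtgtgtac

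The shares called over all genes differed by the number of matches. The median log2 fold change was 0.04 in genes without a match and -0.05 with 1 match. It was -0.12 with 2 matches, -0.17 with 3 and -0.17 with 4 or more. Of genes with 1 match, 24.4% were called lower and 9.98% higher. With 2 matches these shares were 36.6% and 6.61%, with 3 matches 35.2% and 3.52%, and with 4 or more, the class of EIF3B, 34.4% and 3.13%. The share called lower was thus no higher with 3 or more matches than with 2, while the median fold change was lower. For a match in the 3' untranslated region the share called lower was 33.8%, against 26.6% for a match in the coding sequence. For the other strand of the siRNA, whose seed pairs with CGATGAT, 17.8% of the 747 genes with a match and 16.0% of the 10200 genes without one were called lower.

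Longer transcripts hold more matches, with a median length of 4454 bases in genes with a guide match and 3001.5 bases in genes without. The difference in calls was present in each of 3 classes of transcript length. In the shortest class 31.2% of genes with a match and 9.46% without were called lower, in the middle class 26.2% and 11.3%, and in the longest class 26.6% and 13.2%. Of all genes called lower that had a canonical transcript, 52.9% held a guide match. Among the myogenic markers, 2 of the 5 called lower and 3 of the 11 tested held one. Whether pairing of the guide seed had a part in the lower levels of EIF3B, EIF4G2 and the other genes called lower was not tested. With 1 siRNA against circVAMP3, such pairing cannot be told apart from the loss of circVAMP3 or the lower linear VAMP3 mRNA (log2 fold change -0.29).

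**Figure D4:**
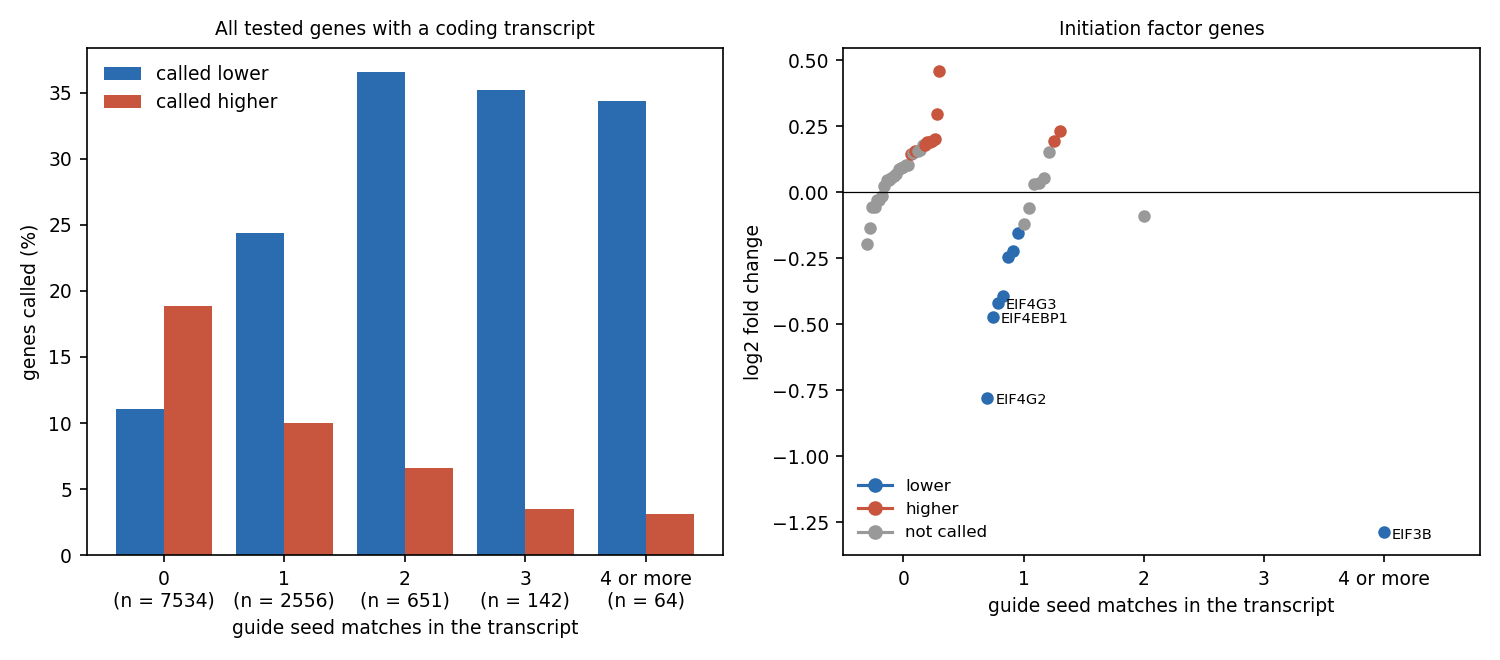
Left, the percentage of tested genes called lower (blue) and higher (red) by the number of guide seed matches in the canonical transcript, for 10947 genes. Right, the log2 fold change of the 48 initiation factor genes by the same number, with points spread sideways in order of their value; the 8 blue points all stand at 1 match or at 4 or more.

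Promoter windows from RefSeq (GRCh38.p14, 250 bases before the start to 50 after) were matched for 41 of the 49 genes. No window was matched for EIF3E, EIF3H and EIF3L, called higher, or for EIF4EBP1, called lower. EIF2S2, EIF3A, EIF3CL and EIF3G, not called, had none either. For these genes neither sequence feature below could be looked for. A C at the annotated start followed by 4 bases each C or T, the form of the terminal oligopyrimidine tract by which mTORC1 controls mRNAs of the translation machinery, was present at a start of 10 of the 41 genes (24.4%) and of 5.14% of the 27305 genes of the promoter reference, measured here or not. The 10 were EIF2A, EIF2D, EIF2S3, EIF2S3B, EIF3D, EIF3F, EIF3K, EIF3M, EIF4A2 and EIF4B. Among them EIF4B was called lower and EIF3D and EIF4A2 higher, 1 and 2 of 10, beside 15.8% and 14.6% of all genes, and the other 7 were not called. CACGTG, a palindrome and so the same on both strands, was present in the window of 10 of the 41 genes (24.4%) and of 8.77% of the genes of that reference. Of these 10, EIF2B3, EIF4B and EIF4H were called lower and 0 higher, beside 15.8% and 14.6% of all genes, and the other 7, EIF1B, EIF3F, EIF3K, EIF4A3, EIF4E, EIF4G1 and EIF5A2, were not called.

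Genes that act beside the initiation factors were described from lists by function. Of 9 eIF2 kinases and phosphatase subunits, 5 were called lower and 0 higher, beside 15.8% and 14.6% of all genes. EIF2AK3, the kinase PERK that phosphorylates EIF2S1 under stress of the endoplasmic reticulum, had a mean of 4.39 ± 0.296 FPKM in si-SCR (SD, n = 3) and 2.27 ± 0.0347 FPKM in si-circVAMP3 (SD, n = 2), a log2 fold change of -0.82 (adjusted p = 0.000893). EIF2AK2, the kinase PKR that responds to double-stranded RNA, had 4.10 ± 0.268 FPKM and 2.79 ± 0.0628 FPKM (log2 fold change -0.48, adjusted p = 0.00496). The catalytic phosphatase genes PPP1CA and PPP1CC had log2 fold changes of -0.37 and -0.31 (adjusted p = 0.00338 and 0.00688). PPP1CC lost the call without either si-circVAMP3 library, at up to 0.0592. All 5 genes called lower in this list held a guide seed match, as did 6 of its 9 genes in all. Over all genes with a canonical transcript, 52.9% of those called lower and 31.2% of the whole held one.

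Of 17 tested helpers of initiation, 5 were called lower and 3 higher, beside 15.8% and 14.6% of all genes. LARP1, which binds mRNAs with a terminal oligopyrimidine tract, had 41.5 ± 0.985 FPKM in si-SCR and 28.6 ± 0.579 FPKM in si-circVAMP3 (log2 fold change -0.53, adjusted p = 0.000619). DENR, which with MCTS1 supports reinitiation, had a log2 fold change of -0.37 (adjusted p = 0.00168), and CTIF, a scaffold for the nuclear cap-binding complex, -0.42 (adjusted p = 0.00776). ABCF1 had 84.1 ± 2.44 FPKM and 96.8 ± 0.669 FPKM (log2 fold change 0.20, adjusted p = 0.0126). CTIF and ABCF1 lost the call without either si-circVAMP3 library, at up to 0.0673 and 0.0898. Of the 5 called lower, 3 held a guide seed match, as did 6 of the 17 in all, beside the same 52.9% and 31.2%.

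Elongation, termination and recycling held 2 genes called lower and 4 higher among 15, beside 15.8% and 14.6% of all genes. GSPT1, a termination factor, and EEF2K, the kinase that inhibits the elongation factor EEF2, had log2 fold changes of -0.17 and -0.25 (adjusted p = 0.0182 and 0.0215). EEF1B2 and HBS1L had log2 fold changes of 0.17 and 0.18 (adjusted p = 0.0222 and 0.0264). All 4 lost the call without si-SCR replicate 2 and without either si-circVAMP3 library, at adjusted p of up to 0.111 for GSPT1, 0.139 for EEF2K, 0.139 for EEF1B2 and 0.141 for HBS1L. EEF1B2 was also lost without si-SCR replicate 1, under quantile normalization and without the variance trend, and GSPT1 and HBS1L with the replicate block. Both genes called lower held a guide seed match, as did 5 of the 15 in all, beside the same 52.9% and 31.2%.

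Of 13 genes of mTORC1 and MNK signalling, 1 was called lower and 2 higher, beside 15.8% and 14.6% of all genes. MKNK2, a kinase that phosphorylates EIF4E, had 7.57 ± 0.990 FPKM in si-SCR (SD, n = 3) and 15.2 ± 0.397 FPKM in si-circVAMP3 (SD, n = 2), a log2 fold change of 0.96 (standard error 0.10, adjusted p = 0.00147). DEPTOR, a weakly expressed inhibitor of mTOR, had a log2 fold change of -0.58 (adjusted p = 0.00496), and RPS6, the ribosomal protein phosphorylated downstream of mTORC1, 0.21 (adjusted p = 0.0148). MKNK2 and DEPTOR were called in every fit that left out a library. DEPTOR held a guide seed match, as did 5 of the 13 in all, beside the same 52.9% and 31.2%. RPS6 was not called without either si-circVAMP3 library, at up to 0.115, nor under quantile normalization, at 0.310.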

How the data were processed

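Per the labels and the study's methods, libraries were made with a stranded mRNA kit. The authors trimmed the reads with Trimmomatic, aligned them with STAR 2.5.2b to GRCh38 with Ensembl 99, counted them per gene with htseq-count on the reverse strand in its intersection-strict mode, removed genes with low counts and deposited FPKM values, 1 column per library. The submitters' processing notes also name bcl2fastq 2.20.0.422. Of the 13822 gene identifiers, 13783 matched GENCODE 44, which gave symbols and coordinates.

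The values were fitted as log2(FPKM + 0.5) with limma 3.58.1 in R 4.3.3 (trend, two-sided, Benjamini-Hochberg over the 12245 genes with a mean of at least 0.5 FPKM), after a check on simulated data. Genes were called at an adjusted p under 0.05. Fold changes are on that scale and understate the change of weakly expressed genes. Members and lists were chosen with earlier results of these data known. All EIF3 rows, called members (at most 20) and the 3 uncalled members with the highest si-SCR mean are given in every library, other uncalled members by fold change, and at most 4 called genes per related list. FPKM ratios gave whole fragments for 100% of genes (relative tolerance 3e-13). These are the smallest whole numbers that fit, so single genes may be too low by a whole factor. Levels of genes with copies or pseudogenes (9 with rows) may share reads, and EIF4E3, EIF1B, EIF5 and EIF6 overlap another gene model on their strand. Alternatives changed the pseudocount, filter, scaling, variance model, block and libraries used. Tables and figures were made in Python 3.11.15 with pandas 2.3.3, numpy 2.4.6, scipy 1.17.1 and matplotlib 3.10.9.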

Additional observations from a re-analysis of the deposited data

How the results depend on the processing

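Of the 19 members called, 3 (EIF3B, EIF4G2 and EIF4G3) were called in all 16 alternatives, and 16 lost the call when at least 1 library was left out. Members called higher fell from 11 to 7 on the TPM scale, 7 with quantile normalization and 4 without the variance trend, and EIF3 subunits called higher from 5 to 3, 3 and 1. The EIF3 median log2 fold change was 0.12 with quantile normalization. With a filter at 5 FPKM, which left 6755 genes to test in place of 12245, 1268 were called lower in place of 1939, and the study cut-off, all genes, gave 243 in place of 466. A voom fit to recovered reads, chosen after seeing the data, gave 733 there. Leaving out each library in turn gave 3 to 8 members called lower, 0 to 12 higher, 0 to 6 EIF3 subunits higher, 779 to 2005 genes lower and 484 to 1989 higher, with medians of 0.0467 to 0.0771 for members and 0.11 to 0.15 for EIF3. A lone si-circVAMP3 library is then assumed to vary like si-SCR. With replicate number as a replicate block, 1662 genes were called lower and 1460 higher, members 6 and 9, with a member median of 0.0771. Replicate 3 exists only in si-SCR, so this block gives the same fold changes as leaving out si-SCR replicate 3. Same-numbered libraries did not deviate together (r = -0.15 and -0.04), so the number pairs nothing known. No called member changed direction. The cause of the other shifts was not tested.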
